A study of Mus musculus with 4 samples.

Results

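The proteasome genes described here were the entries of the 4 TPM tables whose symbol begins with Psma, Psmb, Psmc, Psmd or Psme and a number, leaving out the immunoproteasome subunits Psmb8, Psmb9 and Psmb10 and pseudogene names. The name rule found 42 genes of 45773. A gene is called measured where its average over the libraries reached 1 TPM, which held for 40 of these genes and for 12570 genes in all. TPM is a relative abundance that divides reads by transcript length and scales every library to the same total. The remaining 2 genes are tissue-specific. Psma8, the spermatocyte form of an alpha subunit, was listed at 0 in all 4 libraries. Psmb11, the catalytic subunit of the thymus, was at 0.0857 TPM in the Klf4-transduced library and listed at 0 in the other 3. The prefix also takes in Psmc3ip, a meiotic recombination factor that is no proteasome subunit. It is kept in the counts and named apart.

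The proteasome degrades proteins tagged with ubiquitin and supplies peptides for class I antigen presentation. Its 20S core is a barrel of alpha rings (Psma), which gate the entrance, around beta rings (Psmb), of which Psmb5, Psmb6 and Psmb7 carry the peptidase sites. The 19S particle caps the core: a base of ATPases (Psmc) and large scaffold subunits (Psmd) unfolds the substrate, and a lid (Psmd) removes ubiquitin. Other caps, the activators, are built from Psme proteins. The subunits of a particle are assembled in fixed proportions, and interferon exchanges the constitutive catalytic subunits for inducible ones.

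Tumour-infiltrating CD8 T cells of mice were profiled by SMART-seq, a full-length low-input RNA-seq method, with 1 library in each of 4 groups. For the gain experiment, Rag2 KO mice, which have no T or B cells of their own, carried MC38-gp100 colon tumours. On day 7 they received Pmel-I CD8 T cells, whose transgenic receptor recognises gp100, transduced with Klf4 or with the empty MigRI vector, and GFP+ infiltrating cells were taken on day 15. For the loss experiment, PD1+ CD8+ cells were taken on day 14 from MC38 tumours of Klf4 cKO and of control (WT) mice. The labels do not give the Cre driver or the deleted part for the Klf4 cKO mice, the ages of the mice or whether animals were pooled. Each tumour began with 300000 injected cells, and each sample held 10000 to 20000 sorted T cells. With 1 library per group there is no replicate check, no spread and no p-value, and each difference compares one library with another. TPM keeps no read depth, so the depth behind each value is unknown.

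Klf4 itself was at 26.05 TPM in the Klf4-transduced library and 8.69 TPM in MigRI, and at 9.28 TPM in the library labelled Klf4 cKO against 7.52 TPM in control. The level was thus no lower in the library labelled Klf4 cKO and does not check that label. Markers of CD8 T cells summed to 5651 TPM in the Klf4-transduced library against 23790.1 TPM in MigRI, and to 17397 TPM in the library labelled Klf4 cKO against 7515 TPM in control. Macrophage and monocyte markers summed to 7578 TPM with Klf4 against 1748 TPM in MigRI. Of 13 measured, 12 were at least 2-fold higher with Klf4, against 43.7% of all measured genes, and 0 lower, against 10.3%. Relative to the median difference, 10 were higher with Klf4, against 21.4% of all, and 0 lower, against 23.6%. The same markers summed to 1862 TPM in the library labelled Klf4 cKO against 566 TPM in control. At least 2-fold higher were 8 of 13, against 38.4% of all measured genes, and 0 were lower, against 6.92%. Relative to the median difference, 6 were higher there, against 12.4% of all, and 0 lower, against 16.2%. Fibroblast and endothelial markers summed to 1381 TPM against 144 TPM and to 252 TPM against 28.9 TPM in the same order. Neutrophil and mast cell markers summed to 124 TPM against 29.0 TPM and to 35.4 TPM against 29.6 TPM, again in that order. Of 5 measured, 5 were at least 2-fold higher with Klf4, against 43.7% of all measured genes. In the loss experiment 2 were higher, against 38.4% of all measured genes, and 2, S100a8 and S100a9, were lower, against 6.92%. Tumour keratin and epithelial markers summed to between 0.717 and 3.50 TPM in the 4 libraries. The 4 B cell markers summed to 23.7 TPM with Klf4 against 6.80 TPM in MigRI, and to 6.34 TPM in the library labelled Klf4 cKO against 2.26 TPM in control. Of these, 2 were listed at 0 in all 4 libraries, and Cd79a was at 20.6 TPM with Klf4 against 3.52 TPM in MigRI. None of the macrophage markers was listed at 0. Proteasome genes are expressed by all of these cells, and the part of the admixed cells in the differences below was not tested. In such bulk samples fewer cells of a type and less RNA per cell cannot be told apart.

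Levels of the proteasome genes were high in all 4 libraries. Together the 40 measured genes made up 1.96% of all TPM in the Klf4-transduced library and 2.25% in MigRI, and 1.48% in the library labelled Klf4 cKO and 0.807% in control. The median gene of the set was at 362 TPM with Klf4 and 228 TPM in MigRI, and at 155 TPM in the library labelled Klf4 cKO against 42.3 TPM in control. Control was the lowest of the 4 libraries for most members, Psmb3 being an exception, and the Klf4-transduced library was the highest for most. The gain and loss experiments differ in mice, cells, sort and day, so this order is no comparison between them. The 14 measured core genes had a higher median than the 17 genes of the 19S particle in every library, though their ranges overlapped in each. The core median in TPM exceeded that of the 19S genes 2.28-fold with Klf4 and 2.65-fold in MigRI, and 4.75-fold in the library labelled Klf4 cKO and 3.62-fold in control.

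Core genes, whose products occur in equal numbers in the constitutive 20S particle, were far from equal in TPM. The inducible Psmb8, Psmb9 and Psmb10, which can take the places of Psmb5, Psmb6 and Psmb7, are not counted among them. Psmb10 was at 2.74 times Psmb7 in MigRI, 2.51 times in the library labelled Klf4 cKO and 4.11 times in control. Gaps measured from Psmb7 thus leave out the Psmb10 transcripts for the same place. The highest stood above the lowest 5.79-fold in the Klf4-transduced library (Psma7 over Psma3) and 27.0-fold in MigRI (Psmb3 over Psmb7). The same pair, Psmb3 over Psmb7, was 9.52-fold apart in the library labelled Klf4 cKO and 67.9-fold apart in control. The standard deviation of log2(TPM + 1) over the 14 core genes was 0.79 with Klf4 and 1.37 in MigRI, and 0.97 in the library labelled Klf4 cKO and 1.77 in control. Core transcripts were thus spread more narrowly in the Klf4-transduced library than in MigRI, and more narrowly in the library labelled Klf4 cKO than in control. Among the 17 genes of the 19S particle the same standard deviation was 0.73 with Klf4 and 1.21 in MigRI, and 0.95 in the library labelled Klf4 cKO and 0.90 in control.

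**Figure D1:**
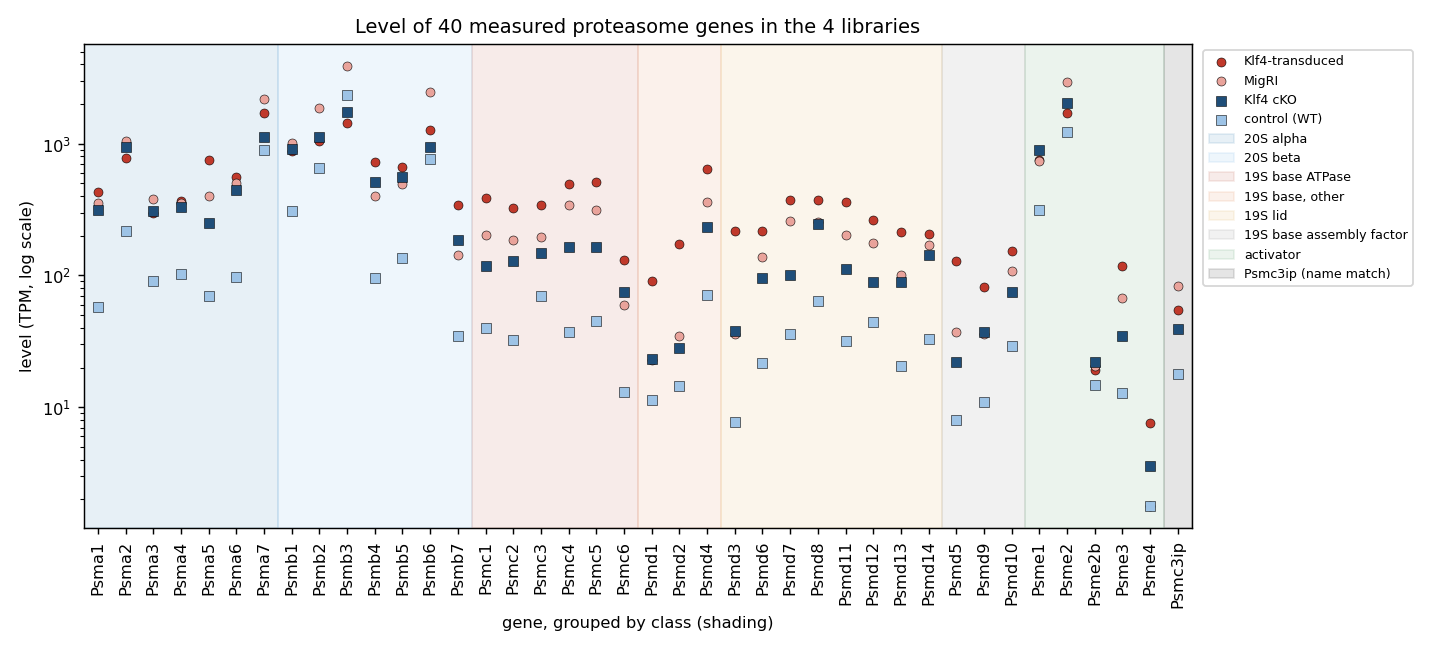
Level of each of the 40 measured genes (TPM, log scale) in each library, 1 point per library, with classes shaded. Control (WT), light squares, is lowest for most genes, while Psmb3, Psmb6 and Psma7 are high in all 4 libraries, and Psmb3 reaches 3885 TPM in MigRI. The gain and loss experiments differ in mice, cells, sort and day, so levels compare only within each.

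With Klf4 the core and the 19S particle differed. Core genes were spread around no difference. All 17 genes of the 19S particle were higher than in MigRI as deposited, against 70.95% of all measured genes. Of the 17, 8 lay below the median gene. The 19S median of 0.82 log2 turned to -0.59 relative to genes of the same coding-length class. Differences are given as log2(TPM + 1) in the Klf4-transduced library minus that in MigRI. The median over the 40 measured genes was 0.57, beside 0.79 over the 12570 measured genes, so the set lay 0.22 below the median gene. A difference of at least 1 log2, or 2-fold, was called. As deposited, 9 of the 40 were at least 2-fold higher, against 43.7% of all measured genes, and 1 was at least 2-fold lower, against 10.3%. Relative to the median gene 3 were higher, against 21.4% of all, and 8 were lower, against 23.6%. The shares of members called higher lay below those of all genes on both scales.

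In the loss experiment nearly every member was higher in the library labelled Klf4 cKO than in control. The median difference over the 40 genes was 1.68 log2, beside 0.74 over all measured genes. Of the 40 differences 39 were positive, against 78.1% of all measured genes. At least 2-fold higher were 30 of the 40, against 38.4% of all measured genes, and 0 were at least 2-fold lower, against 6.92%. Relative to the median gene 18 were higher, against 12.4% of all, and 1 was lower, against 16.2%. Housekeeping genes had a median difference of 1.83 log2 in the same comparison, with 11 of 12 at least 2-fold higher, and of 1.04 log2 for Klf4 over MigRI, with 6 of 12 higher. The proteasome median was thus close to that of housekeeping genes in the loss experiment and below it in the gain experiment.

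**Figure D2:**
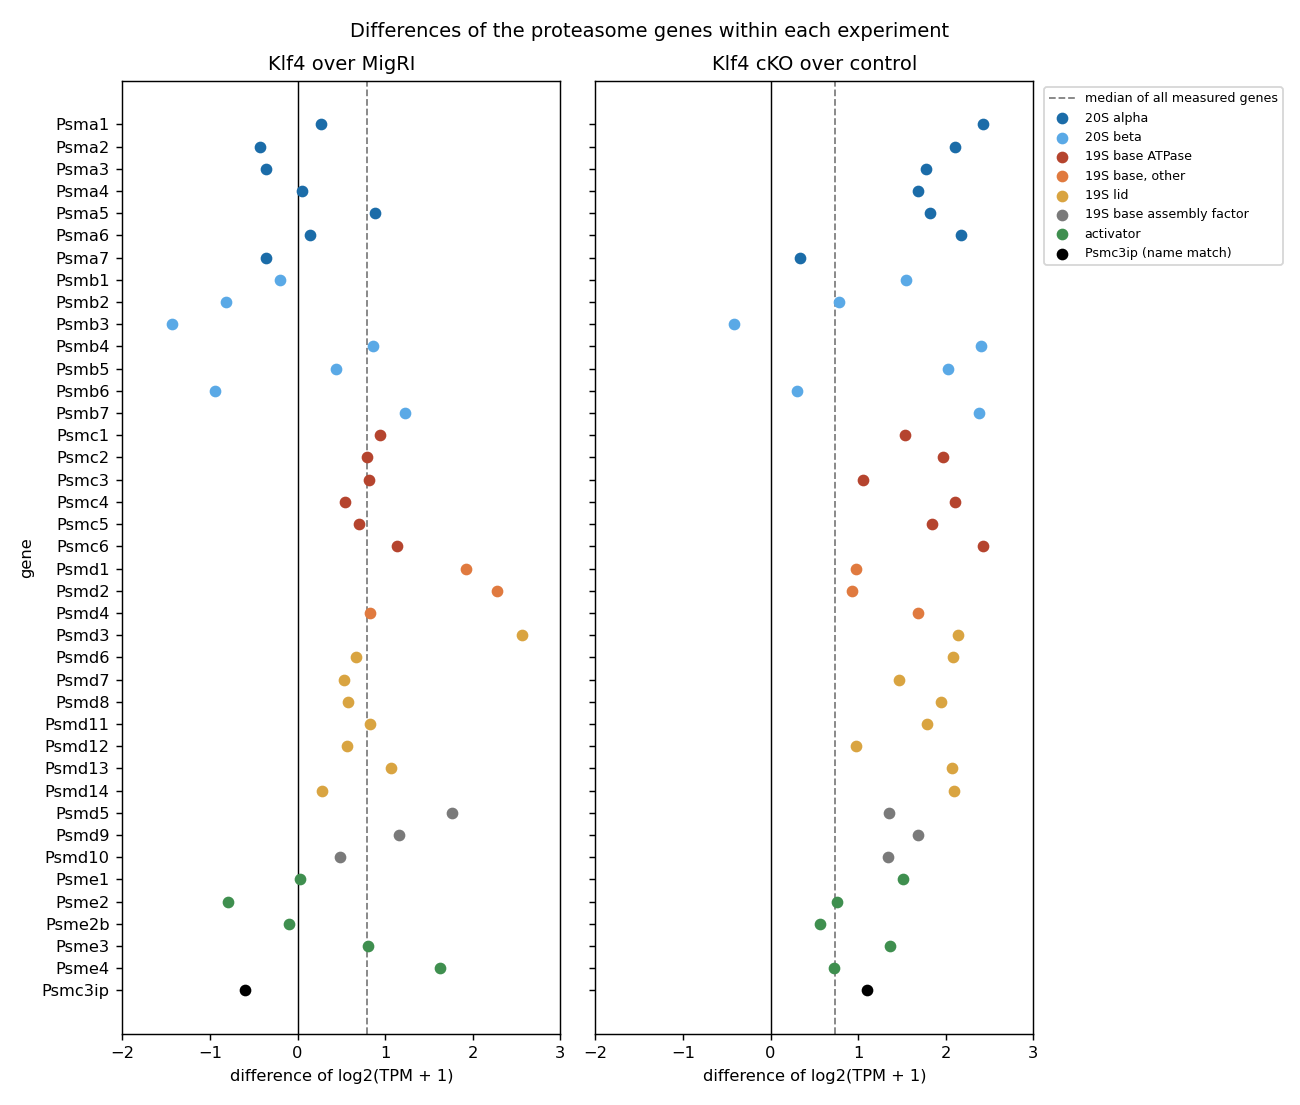
Difference of log2(TPM + 1) for each measured gene, Klf4-transduced minus MigRI (left) and library labelled Klf4 cKO minus control (right), with the median of all 12570 measured genes as a dashed line. On the left the 20S genes straddle 0 and Psmd1, Psmd2 and Psmd3 lie farthest right, while on the right 39 of 40 genes lie above 0 and Psmb3 is the exception.

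Promoter sequence was read for the genes at the ends of these ranges. The 35 members with a promoter in the RefSeq table (GRCm38.p6, the mm10 build) did not include Psma8, Psmb1, Psmb2, Psmb7, Psmc3, Psmd3 and Psmd7. Shown are the upstream bases, on the gene's own strand and ending before the annotated transcript start, of Psmb3 and Psmb6, the 2 lowest genes with Klf4, of Psmd2, the highest with Klf4 that has a table entry, and of Psmc6, the highest in the library labelled Klf4 cKO. They span chr11:97703184-97703398, chr11:70525107-70525356, chr16:20651402-20651651 and chr14:45329574-45329787, all on the plus strand. Capitals mark matches on either strand to TGACNNNGC, the core of the antioxidant response element, and to CCAAT, the box bound by NF-Y. No match of one motif overlapped the other in these windows.
Psmb3: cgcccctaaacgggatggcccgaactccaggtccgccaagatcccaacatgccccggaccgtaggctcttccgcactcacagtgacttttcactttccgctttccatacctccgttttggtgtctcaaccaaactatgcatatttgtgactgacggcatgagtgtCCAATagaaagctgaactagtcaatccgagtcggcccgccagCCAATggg
Psmb6: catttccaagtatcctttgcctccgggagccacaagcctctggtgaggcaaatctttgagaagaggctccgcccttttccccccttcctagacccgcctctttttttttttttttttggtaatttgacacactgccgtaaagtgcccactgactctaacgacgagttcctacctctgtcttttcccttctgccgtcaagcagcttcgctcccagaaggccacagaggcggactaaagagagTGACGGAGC
Psmd2: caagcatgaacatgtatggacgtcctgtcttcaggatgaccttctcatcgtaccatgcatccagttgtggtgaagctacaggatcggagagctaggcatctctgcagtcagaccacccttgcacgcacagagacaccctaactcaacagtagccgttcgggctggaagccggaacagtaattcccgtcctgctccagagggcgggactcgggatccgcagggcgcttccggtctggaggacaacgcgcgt
Psmc6: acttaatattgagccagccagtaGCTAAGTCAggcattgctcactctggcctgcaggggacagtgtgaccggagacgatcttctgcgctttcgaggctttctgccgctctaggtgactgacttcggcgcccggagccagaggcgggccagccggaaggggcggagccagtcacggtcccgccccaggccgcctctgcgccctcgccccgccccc
The RefSeq starts of Psmb3 and Psmc6 lie inside the GENCODE transcript, so their printed windows stop short of the RefSeq start, at 215 and 214 bases. In the 250 bases upstream of the RefSeq start, TGACNNNGC or its reverse complement stood in 5 of the 34 measured members with an entry (14.7%), against 10.2% of all 32851 promoters in the table. A member counted where any of its promoters matched, while the share of all is per promoter. The 5 were Psmb5, Psmb6, Psmc6, Psmd9 and Psmd12. For Klf4 over MigRI their differences ran from -0.94 for Psmb6 to 1.15 for Psmd9, and in the loss experiment from 0.30 for Psmb6 to 2.43 for Psmc6. CCAAT or its reverse complement stood in 13 of 34 (38.2%), against 33.8% of all promoters. Psmb3 had 2 matches to CCAAT, which begin 85 and 43 bases upstream of the RefSeq start, and Psmd2 had none to either motif. The shares among members, counted per gene, were near those of all promoters, counted per promoter. Members with TGACNNNGC lay on both sides of 0 with Klf4.

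The alpha subunits form the gate of the core. With Klf4 their 7 measured genes had a median difference of 0.05 log2, from -0.43 for Psma2 to 0.89 for Psma5. In either direction 0 were called, against 43.7% of all measured genes higher and 10.3% lower. Psma2 was at 774 TPM with Klf4 against 1041 TPM in MigRI, and Psma3 at 295 TPM against 379.6 TPM, differences of -0.43 and -0.36. Psma7 was at 1709 TPM with Klf4 against 2189 TPM in MigRI, also a difference of -0.36. Levels of Psma4 and Psma6 were nearly equal, at 364 and 554 TPM with Klf4 against 353 and 500.1 TPM in MigRI. Psma1 was at 429 TPM with Klf4 against 356 TPM in MigRI, and Psma5 at 748 TPM against 404 TPM. Relative to the median gene 6 of the 7 were lower, 3 of them by at least 2-fold, against 23.6% of all measured genes.

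The alpha genes had, in the library labelled Klf4 cKO, a median difference of 1.82 log2. At least 2-fold higher were 6 of 7, against 38.4% of all measured genes. Psma1 was at 313 TPM in that library against 57.4 TPM in control, a difference of 2.43. Psma6 was at 442 TPM against 97.6 TPM and Psma2 at 941 TPM against 219 TPM, differences of 2.17 and 2.10. Psma5 was at 251 TPM against 70.0 TPM, Psma3 at 310.3 TPM against 90.1 TPM, and Psma4 at 329.7 TPM against 102 TPM. Only Psma7 of the 7 was under 2-fold, at 1126 TPM against 888 TPM, a difference of 0.34, which is -0.40 relative to the median gene.

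The beta genes varied most. Their median difference with Klf4 was -0.20 log2, with a range from -1.43 to 1.23. Psmb3, a non-catalytic subunit on chromosome 11 from 97703399 to 97713500 on the plus strand (mm10), was at 1439 TPM with Klf4 against 3885 TPM in MigRI. That difference, -1.43, was the lowest of the 40 genes. It was at 1752 TPM in the library labelled Klf4 cKO against 2340.0 TPM in control, a difference of -0.42, and was the 1 gene lower in both comparisons as deposited. Psmb2, another non-catalytic subunit, was at 1048 TPM with Klf4 against 1851 TPM in MigRI, a difference of -0.82. It was at 1119 TPM in the library labelled Klf4 cKO against 651 TPM in control, a difference of 0.78. Psmb4 went the other way, at 728 TPM with Klf4 against 399.7 TPM in MigRI, a difference of 0.86. It was at 507 TPM in the library labelled Klf4 cKO against 95.0 TPM in control, a difference of 2.40. Psmb1 was at 872 TPM with Klf4 against 1004 TPM in MigRI, and at 909 TPM in the library labelled Klf4 cKO against 311 TPM in control.

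The 3 catalytic subunits did not move together. Psmb6, which cuts after acidic residues and whose TGACNNNGC match lies next to the RefSeq start, was at 1279 TPM with Klf4 against 2456 TPM in MigRI, a difference of -0.94. Psmb5, the chymotrypsin-like subunit, was at 667 TPM with Klf4 against 490.4 TPM in MigRI, a difference of 0.44. Psmb7, the trypsin-like subunit, was at 339 TPM with Klf4 against 144 TPM in MigRI, a difference of 1.23 and the 1 core gene called higher. Psmb6 over Psmb7, which are present in equal numbers in the constitutive particle, was thus 3.77 with Klf4 and 17.1 in MigRI. In turn Psmb6 was at 936 TPM in the library labelled Klf4 cKO against 759.9 TPM in control, a difference of 0.30. Psmb5 was at 555 TPM against 136 TPM and Psmb7 at 184 TPM against 34.5 TPM, differences of 2.02 and 2.38. The ratio of Psmb6 to Psmb7 was 5.09 in the library labelled Klf4 cKO and 22.0 in control. Psmb6 and Psmb7 were thus nearer each other in the Klf4-transduced library than in MigRI, and in the library labelled Klf4 cKO than in control.

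The inducible catalytic subunits replace these 3 in the immunoproteasome. The ratio of Psmb8 to Psmb5, which it replaces, was 2.41 with Klf4 and 4.38 in MigRI, and 2.96 in the library labelled Klf4 cKO and 3.49 in control. Psmb9 over Psmb6 was 0.583 with Klf4 and 0.418 in MigRI, and 1.20 in the library labelled Klf4 cKO and 0.426 in control. Psmb10 over Psmb7 was 2.11 with Klf4 and 2.74 in MigRI, and 2.51 in the library labelled Klf4 cKO and 4.11 in control. The ratio was thus lower in the Klf4-transduced library than in MigRI, and in the library labelled Klf4 cKO than in control, for Psmb8 and Psmb10, and higher for Psmb9. With Klf4 the inducible genes Psmb8, Psmb9 and Psmb10 were at 1606, 746 and 715 TPM against 2147, 1026 and 395 TPM in MigRI. Of the 3, 0 were called, against 43.7% of all measured genes higher and 10.3% lower. In the library labelled Klf4 cKO the inducible genes were at 1643, 1126 and 462 TPM against 473, 324 and 142 TPM in control. All 3 were at least 2-fold higher, against 38.4% of all measured genes.

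The ATPases of the base thread the unfolded substrate into the core. All 6 were higher with Klf4 as deposited, and 3 of them relative to the median gene, within a narrow range from 0.54 log2 for Psmc4 to 1.13 for Psmc6, and their median of 0.80 lay at that of all measured genes. Psmc6, on chromosome 14 from 45329788 to 45349705 on the plus strand, was at 131 TPM with Klf4 against 59.3 TPM in MigRI. Psmc1 was at 389.9 TPM against 202 TPM, Psmc3 at 345 TPM against 195 TPM, and Psmc2 at 324 TPM against 187 TPM. Psmc5 was at 507 TPM against 311 TPM and Psmc4 at 495 TPM against 339 TPM. All 6 were at least 2-fold higher in the library labelled Klf4 cKO than in control, against 38.4% of all measured genes. The median difference of the 6 was 1.90. Psmc6, at 74.8 TPM against 13.1 TPM, had, with Psma1, the highest difference of the 40 genes, 2.43. Psmc4 was at 164 TPM against 37.5 TPM, Psmc2 at 129.6 TPM against 32.5 TPM, and Psmc5 at 164 TPM against 44.8 TPM. Psmc1 was at 118 TPM against 40.2 TPM. Psmc3 had the lowest difference of the ATPases, 1.05, at 147 TPM against 70.3 TPM.

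The 2 large scaffolds of the base stood apart with Klf4. Psmd2, which docks ubiquitin receptors and lies on chromosome 16 from 20651652 to 20663414 on the plus strand, was at 172 TPM with Klf4 against 34.8 TPM in MigRI, a difference of 2.28. Psmd1 was at 89.9 TPM with Klf4 against 23.0 TPM in MigRI, a difference of 1.92. Both passed 2-fold relative to the median gene too, at 1.48 and 1.13. Their differences in the loss experiment were among the smaller of the 19S genes. Psmd2 was at 28.3 TPM in the library labelled Klf4 cKO against 14.4 TPM in control and Psmd1 at 23.3 TPM against 11.3 TPM, differences of 0.93 and 0.98. Psmd4, a ubiquitin receptor of the base, was at 641 TPM with Klf4 against 361 TPM in MigRI, and at 232 TPM in the library labelled Klf4 cKO against 71.4 TPM in control. Its differences were 0.83 and 1.69.

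Lid genes had a median difference of 0.62 log2 with Klf4, and 2 of 8 were called higher, against 43.7% of all measured genes. Psmd3, a structural lid subunit on chromosome 11 from 98682554 to 98695979 on the plus strand, was at 219 TPM with Klf4 against 36.2 TPM in MigRI. Its difference of 2.57 was the highest of the 40 genes, and it remained at 1.77 relative to the median gene. Psmd13 was at 213 TPM with Klf4 against 101 TPM in MigRI, a difference of 1.07. The other 6 lay between 0.28 and 0.82. Psmd14, the deubiquitinase of the lid, was at 206 TPM with Klf4 against 169 TPM in MigRI, and its partner Psmd7 at 370.5 TPM against 257 TPM. Psmd6 was at 217 TPM against 137 TPM, Psmd8 at 375 TPM against 252 TPM, Psmd11 at 360.3 TPM against 204 TPM, and Psmd12 at 262 TPM against 176 TPM.

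In the loss experiment the lid had the highest median of the subunit classes, 2.00 log2. In the library labelled Klf4 cKO 7 of 8 lid genes were at least 2-fold higher, against 38.4% of all measured genes. Psmd3 was at 37.8 TPM in that library against 7.78 TPM in control, a difference of 2.14. Psmd14 was at 144 TPM against 32.9 TPM, Psmd6 at 95.4 TPM against 21.7 TPM, and Psmd13 at 89.4 TPM against 20.6 TPM, differences of 2.10, 2.09 and 2.07. Psmd8 was at 248 TPM against 63.8 TPM, Psmd11 at 112 TPM against 31.7 TPM, and Psmd7 at 101 TPM against 36.0 TPM, differences of 1.94, 1.79 and 1.47. Psmd12 was under 2-fold, at 88.5 TPM against 44.3 TPM, a difference of 0.98. Relative to the median gene all 8 lid genes were higher, 6 of them by at least 2-fold, against 12.4% of all measured genes.

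Psmd5, Psmd9 and Psmd10 are chaperones that bind ATPases while the base is built. With Klf4 Psmd5 was at 128 TPM against 37.1 TPM in MigRI and Psmd9 at 81.6 TPM against 36.1 TPM, differences of 1.76 and 1.15. Psmd10, also known as gankyrin, was at 153 TPM against 109 TPM, a difference of 0.49. They were, in the library labelled Klf4 cKO, at 21.9, 37.2 and 75.1 TPM in the same order, against 7.96, 10.9 and 29.0 TPM in control. All 3 were thus at least 2-fold higher there, against 38.4% of all measured genes, with differences from 1.34 to 1.69.

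The 5 activator genes had a median difference of 0.02 log2 with Klf4 and of 0.75 in the library labelled Klf4 cKO, the second close to the 0.74 of all measured genes. Relative to genes with transcripts of 1000 to 2000 nucleotides the second turned to -0.51. Psme1 and Psme2, the interferon-inducible chains of the ring-shaped PA28 activator, were both abundant. Psme2 was at 1706 TPM with Klf4 against 2953 TPM in MigRI, a difference of -0.79, while Psme1 was at 752 TPM against 741 TPM, a difference of 0.02. In the loss experiment Psme1 was at 889.7 TPM in the library labelled Klf4 cKO against 312 TPM in control, and Psme2 at 2049 TPM against 1215 TPM, differences of 1.51 and 0.75. The ratio of Psme2 to Psme1, whose products share a ring, was 2.27 with Klf4 and 3.99 in MigRI, and 2.30 in the library labelled Klf4 cKO and 3.90 in control. Psme3, the nuclear activator, was at 117 TPM with Klf4 against 66.8 TPM in MigRI, and at 34.5 TPM in the library labelled Klf4 cKO against 12.8 TPM in control. Psme4, the single-chain activator PA200, was the lowest measured member, at 7.64 TPM with Klf4 against 1.79 TPM in MigRI. It was at 3.60 TPM in the library labelled Klf4 cKO against 1.79 TPM in control. Psme2b was at 19.1 TPM with Klf4 against 20.5 TPM in MigRI, and at 22.2 TPM in the library labelled Klf4 cKO against 14.7 TPM in control. Its transcript and that of Psme2 were identical at 789 of 794 aligned positions (99.4%, GENCODE vM21), so reads of this pair could be split between them. Psmc3ip, the name match, was at 54.7 TPM with Klf4 against 83.2 TPM in MigRI, and at 39.3 TPM in the library labelled Klf4 cKO against 17.8 TPM in control.

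Among all measured genes 70.95% were higher with Klf4 than in MigRI as deposited, and 78.1% in the library labelled Klf4 cKO than in control. The patterns below were counted over members only. Set side by side, 30 of the 40 genes were higher in both comparisons as deposited. Another 9 were lower with Klf4 and higher in the library labelled Klf4 cKO, and 1 was lower in both. Those 9 were Psma2, Psma3, Psma7, Psmb1, Psmb2, Psmb6, Psme2, Psme2b and Psmc3ip. They include 6 core genes and no gene of the 19S particle. Relative to the median gene, 20 were lower with Klf4 and higher in the library labelled Klf4 cKO, 15 were higher in both, 4 were lower in both (Psma7, Psmb3, Psmb6 and Psme2b), and 1, Psme4, was higher with Klf4 and lower in the library labelled Klf4 cKO. Some of these signs rest on values near 0 relative to the median gene. Psmc2 was at -0.000347 with Klf4, and Psme4 at -0.0133 in the library labelled Klf4 cKO. The share of all measured genes with each pattern was not computed. The 2 comparisons share no library.

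Coding length moved with these differences. Core genes have coding lengths from 603 to 831 nucleotides, the ATPases from 1167 to 1425, and Psmd2 and Psmd1 2724 and 2859 (GENCODE vM21, longest coding sequence). Across the 40 genes Spearman's rho between coding length and difference was 0.74 with Klf4 over MigRI and 0.18 in the library labelled Klf4 cKO over control. The genes share their 2 libraries, so this describes those libraries. Differences of all 10039 measured protein-coding genes varied with coding length as well. For genes under 600 nucleotides the median was -0.13 log2 with Klf4 and 0.53 in the library labelled Klf4 cKO, and for genes of 1200 to 1800 nucleotides it was 1.42 and 0.89. Since the shortest 19S subunit gene, Psmd14, has 930 nucleotides, the core and the 19S particle do not overlap in length, and class and length cannot be told apart between them.

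Within length classes under 1800 nucleotides the members' medians lay below those of all genes with Klf4, and in every class they lay above them in the library labelled Klf4 cKO. The 21 members of 600 to 900 nucleotides had a median of 0.02 with Klf4 over MigRI, beside 0.86 over 1639 coding genes of that length. In the library labelled Klf4 cKO over control their median was 1.55, beside 1.25. For the 7 members of 900 to 1200 nucleotides the medians were 0.66 beside 1.19 with Klf4, and 2.07 beside 1.22 in the loss experiment. For the 9 members of 1200 to 1800 nucleotides they were 0.82 beside 1.42, and 1.79 beside 0.89. The pair of 1800 to 3000 nucleotides, Psmd1 and Psmd2, had a median of 2.10 beside 1.21 with Klf4, and 0.95 beside 0.59 in the loss experiment. The core median minus the 19S median was -0.90 log2 with Klf4 as deposited and -0.34 relative to the length classes. It was -0.05 and -0.30 in the library labelled Klf4 cKO over control, but 0.25 there under quantile normalization, so its sign depended on the scaling.

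**Figure D3:**
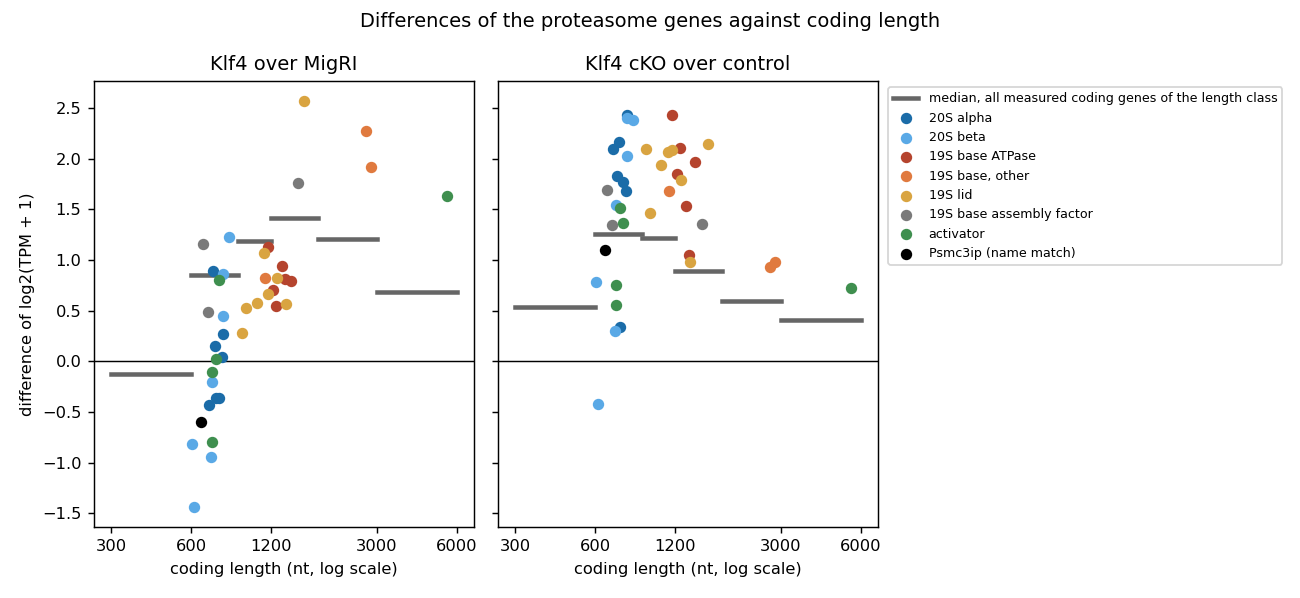
Difference of log2(TPM + 1) against coding length (nucleotides, log scale) for the 40 measured genes, Klf4-transduced minus MigRI (left) and library labelled Klf4 cKO minus control (right). Grey bars are medians of all measured coding genes of a length class, the outer classes being open-ended. On the left the genes climb with length, with Spearman's rho of 0.74, and most lie under the bars, while on the right most lie over them.

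Nfe2l1, which together with a small Maf protein binds the antioxidant response element and drives proteasome genes when the proteasome is inhibited, was at 14.7 TPM with Klf4 against 3.06 TPM in MigRI. It was at 3.16 TPM in the library labelled Klf4 cKO against 4.68 TPM in control. Its differences were 1.95 and -0.45. It was picked out after its values were seen, as were Nfyc, Ubb and Sem1 among the genes that follow. Of the 9 measured genes of transcriptional control, 7 were at least 2-fold higher with Klf4, against 43.7% of all measured genes, and 0 lower, against 10.3%. In the library labelled Klf4 cKO 3 were higher, against 38.4% of all, and 0 lower, against 6.92%. With the median gene set to 0, 5 were higher with Klf4, against 21.4% of all, and 1 lower, against 23.6%. In the library labelled Klf4 cKO 0 were then higher, against 12.4% of all, and 2 lower, against 16.2%. Mafk and Mafg, small Maf partners, were at 36.2 and 29.2 TPM with Klf4 against 1.79 and 3.08 TPM in MigRI, and Nfe2l2, which encodes NRF2, was at 50.7 TPM against 8.61 TPM. In the library labelled Klf4 cKO they were at 3.04, 9.01 and 15.6 TPM in that order, against 1.29, 2.19 and 6.03 TPM in control. The chains of NF-Y differed from each other. Nfyc was at 71.5 TPM with Klf4 against 17.6 TPM in MigRI, and at 23.7 TPM in the library labelled Klf4 cKO against 13.0 TPM in control. Nfyb was at 24.5 TPM with Klf4 against 47.7 TPM in MigRI, and at 38.3 TPM in the library labelled Klf4 cKO against 14.4 TPM in control.

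A list of 7 genes, core assembly chaperones with the inhibitor Psmf1 and the nuclear import factor Akirin2, had median differences of -0.09 log2 with Klf4 and 1.07 in the library labelled Klf4 cKO. With Klf4 1 was called higher and 0 lower, beside 43.7% and 10.3% of all measured genes, and in the loss experiment 4 were higher and 1 lower, beside 38.4% and 6.92%. Taken relative to the median gene, the counts were 0 and 3 with Klf4, beside 21.4% and 23.6% of all. They were 2 and 1 in the library labelled Klf4 cKO, beside 12.4% and 16.2%. Psmg1, a chaperone of alpha ring assembly, was at 135 TPM with Klf4 against 144 TPM in MigRI, and at 47.8 TPM in the library labelled Klf4 cKO against 8.22 TPM in control. Psmg4, another assembly chaperone, was the exception in the loss experiment, at 127 TPM in the library labelled Klf4 cKO against 319 TPM in control, a difference of -1.32. Akirin2, which carries proteasomes into the nucleus, was at 80.9 TPM with Klf4 against 30.1 TPM in MigRI, the 1 call there. The maturation protein Pomp was at 1661 TPM with Klf4 against 2652 TPM in MigRI. In the library labelled Klf4 cKO Psmg2, the partner of Psmg1, was at 67.1 TPM against 13.9 TPM in control, and Psmf1 at 17.0 TPM against 4.59 TPM. Among 7 proteasome-associated genes 3 were higher and 1 lower with Klf4, beside 43.7% and 10.3% of all measured genes. For the library labelled Klf4 cKO 4 were higher and 1 lower, beside 38.4% and 6.92%. On the scale relative to the median gene 0 were higher and 2 lower with Klf4, beside 21.4% and 23.6% of all. In the library labelled Klf4 cKO 1 was higher and 1 lower on that scale, beside 12.4% and 16.2%. The 1 called lower in both comparisons was Sem1, a small lid subunit outside the name rule. It was at 546 TPM with Klf4 against 1167 TPM in MigRI, and at 1151 TPM in the library labelled Klf4 cKO against 2592 TPM in control. The ubiquitin receptor Adrm1 was at 559 TPM with Klf4 against 249 TPM in MigRI, and at 100.2 TPM in the library labelled Klf4 cKO against 31.1 TPM in control. The deubiquitinase Usp14 was at 41.1 TPM with Klf4 against 14.2 TPM in MigRI, and at 16.2 TPM in the library labelled Klf4 cKO against 5.43 TPM in control. Ube3c, a ubiquitin ligase found on proteasomes, was at 4.52 TPM with Klf4 against 1.36 TPM in MigRI. In the library labelled Klf4 cKO Txnl1, a thioredoxin-like protein of the 19S particle, was at 73.1 TPM against 15.3 TPM in control, and the deubiquitinase Uchl5 at 65.1 TPM against 19.7 TPM.

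Upstream of the proteasome, 9 of 13 ubiquitin and shuttle genes were at least 2-fold higher with Klf4, beside 43.7% of all measured genes, and 0 lower, beside 10.3%, with a median of 1.75 log2. In Klf4 cKO over control 5 of the 13 were higher, a share near the 38.4% of all measured genes, and 0 lower, with a median of 0.47 beside 0.74 over all. Against the median gene 6 were higher and 3 lower with Klf4, beside 21.4% and 23.6% of all. In the library labelled Klf4 cKO 2 were higher and 1 lower on that scale, beside 12.4% and 16.2%. Ubb, a polyubiquitin gene, was at 4992 TPM with Klf4 against 7649 TPM in MigRI, and at 4165 TPM in the library labelled Klf4 cKO against 1693 TPM in control. Vcp, the segregase that extracts ubiquitin-tagged proteins, was at 134 TPM with Klf4 against 28.8 TPM in MigRI, and its cofactor Nploc4 at 16.3 TPM against 2.41 TPM. In the loss experiment Vcp was at 28.2 TPM in the library labelled Klf4 cKO against 23.3 TPM in control, and Ufd1, another Vcp cofactor, at 50.6 TPM against 16.6 TPM.

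**Figure D4:**
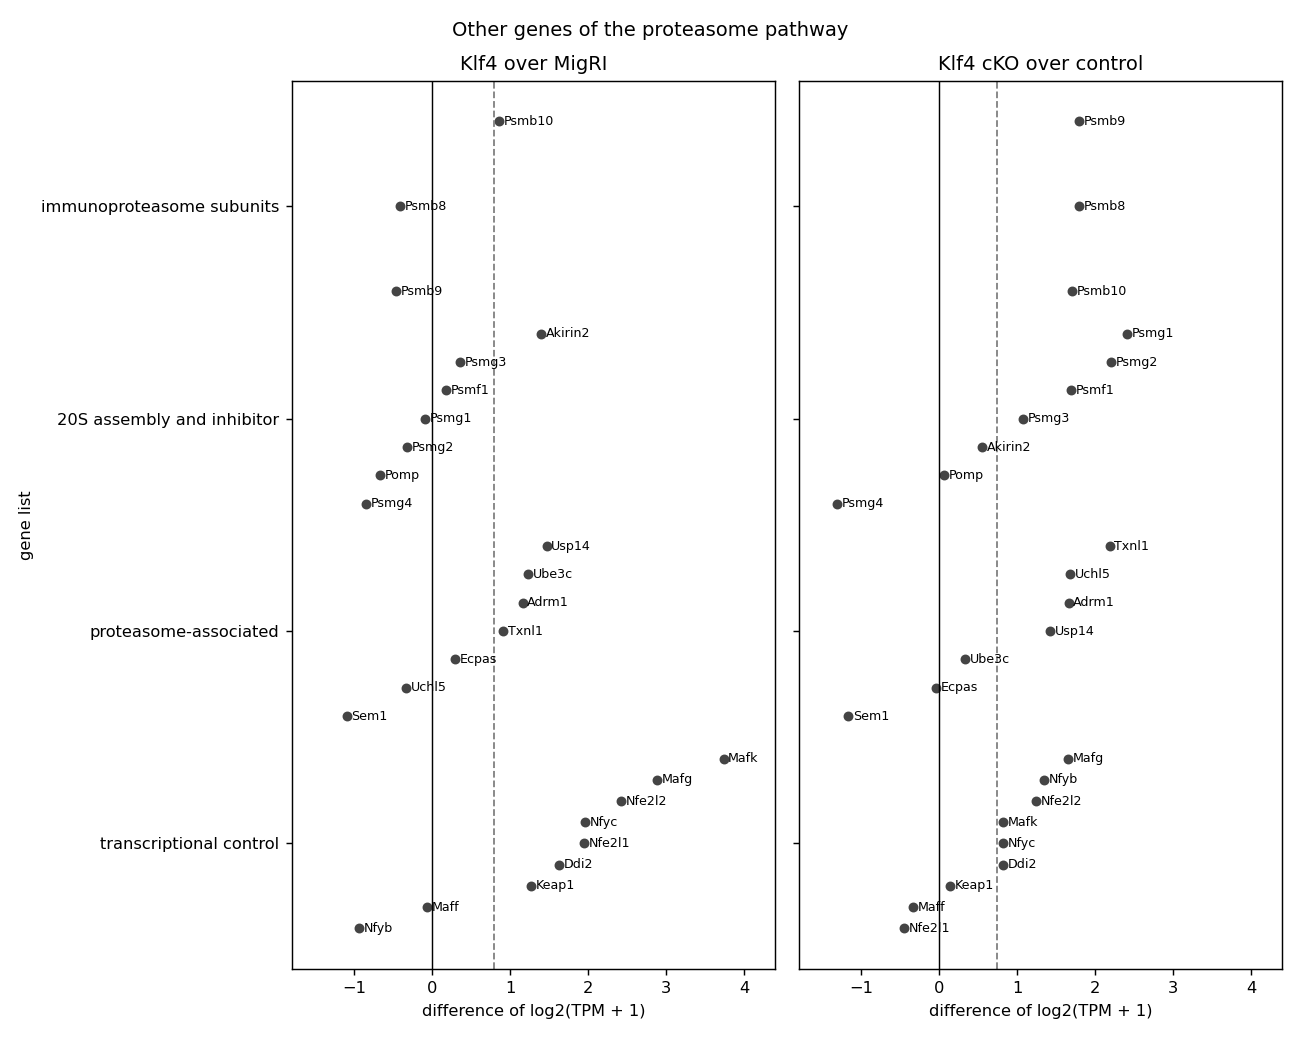
Difference of log2(TPM + 1) for measured genes of the immunoproteasome, assembly, proteasome-associated and transcriptional control lists, Klf4-transduced minus MigRI (left) and library labelled Klf4 cKO minus control (right), with the median of all measured genes as a dashed line. Most transcriptional control genes lie right of the dashed line with Klf4, Mafk at 3.74, and Sem1 lies left of 0 in both panels.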

How the data were processed

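Each library came as 1 table of gene TPM, computed and deposited by the authors. Cells were lysed in TRI Reagent and amplified with SMART-seq v4, per the labels' protocols. Trimmomatic, HISAT2, StringTie, edgeR and the build mm10 are named, without roles or versions, per the submitters' processing notes. The annotation was not given in the sources used here. Of 45777 entries, 26 symbols in the control table were calendar dates, and the 4 genes behind ambiguous dates were left out. None of the proteasome genes was affected. No count or depth can be derived from TPM.

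Differences of log2(TPM + 1) were computed within each experiment over the 12570 genes averaging at least 1 TPM, with Python 3.11.15, pandas 2.3.3 and scipy 1.17.1, and 1 log2 was the call. With 1 library per group no test was run. A pseudocount of 1 understates differences of low genes. Since the median of all measured genes moved by 0.79 and 0.74 log2, values relative to it are given too.

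Members with the 3 highest or lowest differences, catalytic subunits, activators, assembly factors and genes opposite in sign between the experiments, relative to the median gene, were named with their values, as were the 3 largest differences of each other list. Some genes of these lists are not reported here. The 10 alternatives set at the start and 2 added after seeing the data are given at the end. Members and lists were chosen with earlier results of these data known. The calling step was tested on simulated data.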

Additional observations from a re-analysis of the deposited data

How the results depend on the processing

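All 6 results (the median difference and the counts at least 2-fold higher and lower, in each comparison) were recomputed under 12 alternatives, and 44 of 72 values stayed within 1.5 times the reported one. Scaling moved the others. For Klf4 over MigRI the median difference, 0.57 log2, turned to -0.22 relative to the median gene, -0.43 under median of ratios scaling, -0.26 relative to genes whose longest transcript has 1000 to 2000 nucleotides and -0.61 relative to genes of the same coding-length class. In those settings, in the same order, the count higher was 3, 2, 3 and 2 in place of 9, and the count lower 8, 10, 9 and 9 in place of 1. The count lower was 3 under quantile normalization and 2 after rescaling without ribosomal protein, receptor segment and mitochondrial genes.

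For Klf4 cKO over control the median difference, 1.68 log2, stayed positive, at 0.94 relative to the median gene, 0.81 under median of ratios scaling, 0.94 under quantile normalization, 0.42 relative to genes of 1000 to 2000 nucleotides and 0.47 relative to the coding-length class. The count higher, 30, was 18, 14, 16, 4 and 7 in that order. The count lower, 0, was 1 relative to the median gene, under median of ratios scaling, relative to genes of 1000 to 2000 nucleotides and relative to the coding-length class.

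Single called genes turned sign in 5 cases, all under the settings that use gene length. Psmc3 and Psmc3ip in Klf4 cKO over control came to -0.21 and -0.16 relative to genes of 1000 to 2000 nucleotides, and Psmc3ip to -0.15 relative to the coding-length class. Psmc6 and Psmd13 in Klf4 over MigRI came to -0.059 and -0.12 relative to the coding-length class. The coding-length class and the set without Psmc3ip were chosen after seeing the data. Over the settings the class medians in Klf4 over MigRI ran from -1.08 to 0.15 log2 for the core, -0.59 to 0.82 for the 19S particle and -0.98 to 0.22 for the activators. In Klf4 cKO over control they ran from 0.54 to 1.81, from 0.59 to 1.87 and from -0.51 to 1.06 in that order. The cause of these turns was not tested. The core median minus the 19S median with Klf4 ranged from -0.90 to -0.34. In Klf4 cKO over control it ranged from -0.30 to 0.25. No paired analysis was possible because each group has 1 library, and no replicate could be left out. With no depth in TPM, counting error cannot be given.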
